A study of Oryza sativa with 16 samples.

Results

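The probe sets described here were higher on the aromatic side of both pairs of groups in a rice leaf experiment, in the lines as well as in the parents. A probe set, the group of short probes on the array that reads 1 transcript, was taken when its mean intensity in the aromatic bulk was at least 4 times that in the non-aromatic bulk, when its mean in Pusa 1121 was at least 4 times that in Pusa 1342, and when both aromatic means were above 200. Probe sets above 500 in Pusa 1121 and below 50 in Pusa 1342 were left out. The members were thus chosen by measured means of all 4 groups. They are 27 of 57194 probe sets, after 13 others had been left out for the bright and dim parents. Of the 27, 19 read 1 gene each, 19 different genes in all, and 8 have no gene listed here.

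Leaf RNA of field-grown, untreated rice (Oryza sativa) was measured on Affymetrix arrays in 4 groups of 4 arrays, about 25 days after seedlings were transplanted. The aromatic bulk pooled 6 recombinant inbred lines at the scented extreme of a cross of Pusa 1121 with Pusa 1342, and the non-aromatic bulk pooled 6 lines at the unscented extreme. The parental groups were Pusa 1121, a basmati variety and the aromatic parent, and Pusa 1342, the non-aromatic parent. Each bulk is a pool of lines, so a bulk value is an average over its lines and does not show how single lines differed. The labels call the arrays biological replicates without naming separate plants or pools. The p-values therefore rest on how far the arrays of a group differ, and that spread may be technical.

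Rice fragrance comes mainly from 2-acetyl-1-pyrroline, which builds up when the betaine aldehyde dehydrogenase gene BADH2 has lost its function. Recombinant inbred lines are selfed until each carries a fixed mosaic of the parental genomes, so that a gene is present in a line in 1 parent's form or the other's. Lines chosen for a trait tend to share the parental form near the genes behind that trait, and may or may not share it elsewhere. In a leaf sample, fewer cells of a type and less RNA per cell cannot be told apart.

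No array stood apart. Over all probe sets the correlation of log2 values was 0.914 to 0.934 within groups and 0.882 to 0.906 between groups. The 4 leaf genes that could be matched (RBCS, RCA, CAB2R and GLO1, of Rubisco, its activase, light harvesting and photorespiration) were bright in every group, with means from 20694 upwards. Summed intensities of 15 flower and meristem genes were 5065 to 5389 in the aromatic bulk, 6889 to 7646 in the non-aromatic bulk, 5484 to 6140 in Pusa 1121 and 10091 to 10865 in Pusa 1342, so the sums were lower on the aromatic side of each pair, where the 27 probe sets are higher. Much of each sum came from MADS2 and MADS16; of the 15, 7 were lower on both aromatic sides by their means and 4 higher on both, among them MADS5. Sums of 11 root genes were 11509.5 to 12077 in the aromatic bulk, 11925 to 12884 in the non-aromatic bulk, 10063 to 10606 in Pusa 1121 and 7075 to 7663 in Pusa 1342. Most of each root sum came from NAAT1, with means of 9803, 8593, 8752 and 5111 in that order. Of the 11, 5 were lower on both aromatic sides by their means and 2 higher on both, NAAT1 among them. Sums of 9 seed genes were 8877 to 9728, 7908 to 8447, 9392 to 9466 and 8654 to 9908 in the same order of groups. Of these 9 genes, 4 were lower on both aromatic sides by their means and 2 higher on both. The part of these tissues in the results was not tested.

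The choice of the 27 rests on the bulk difference and the parental difference, which are therefore given as a description. The ratio of the aromatic to the non-aromatic bulk ran from 4.01 to 28.3 with a median of 7.01, and the ratio of Pusa 1121 to Pusa 1342 from 4.15 to 103 with a median of 11.0. In all 27 the arrays of each pair were fully apart, an order found in this direction in 12% of all probe sets for the bulks and 14.6% for the parents. At the bulk ratio, LOC4345985 lay just inside at 4.01 and another probe set of LOC9267037 just outside at 3.94. At the parental ratio, LOC107276775 lay inside at 4.15 and the probe set Os.3241.1.S1_at outside at 3.86. At the minimum for the aromatic bulk, Os.46544.2.S1_x_at was inside with 208 and Os.31848.1.S1_at outside with 191. At that for Pusa 1121, OsAffx.20285.1.S1_x_at was inside with 225 and LOC4343507 outside with 192. For the dim limit of Pusa 1342, LOC4346182 with 57.5 was kept and OsAffx.18718.1.S1_at with 46.1 left out. For the bright limit of Pusa 1121, LOC4349269 with 452 was kept and a further probe set of LOC4326061 just above 500 left out.

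**Figure D1:**
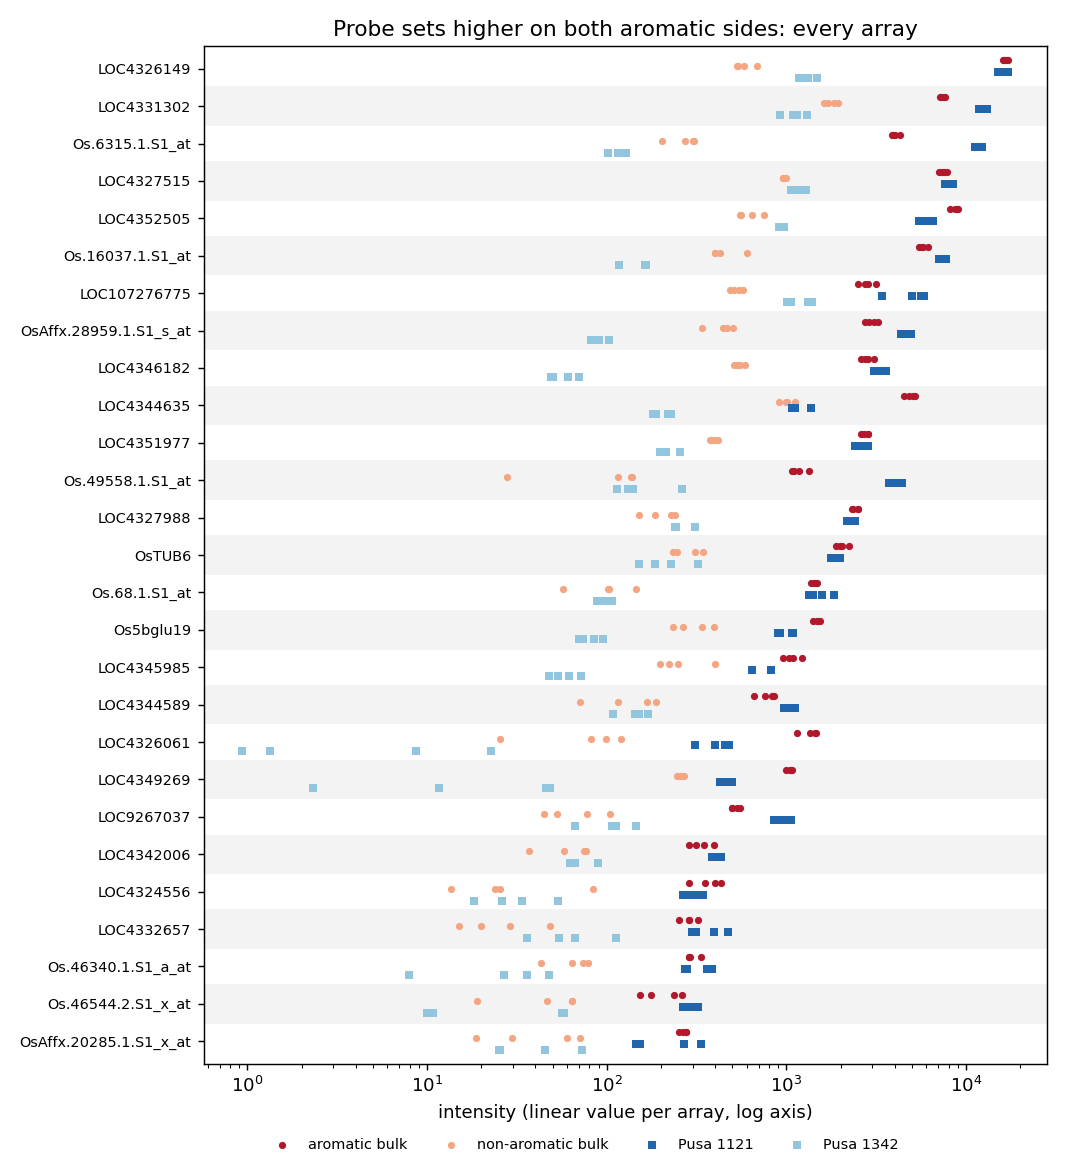
Intensity of each of the 27 probe sets on every array (1 point per array, 4 per group, log axis), in order of the mean over the aromatic groups. In every row the aromatic bulk lies to the right of the non-aromatic bulk and Pusa 1121 to the right of Pusa 1342, while the bulk and the parent of one kind coincide in some rows and lie apart in others.

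Probe sets with such a bulk difference did not all have the parental one. The aromatic bulk was above 200 and at least 4 times the non-aromatic bulk in 141 probe sets. Of these, 45 (31.9%) also had Pusa 1121 at 4 times Pusa 1342 or more. Parents were within 4-fold of each other in 80 (56.7%) and differed at least 4-fold the other way in 16 (11.3%). No minimum was set on Pusa 1121 here. With Pusa 1121 above 200 too, 40 of 81 met the parental ratio, before the bright and dim limits. Shares of all probe sets with such parental differences were not computed, and nothing is read from these percentages.

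What the choice did not compare is the level of a bulk with that of its own parent. This was tested with limma, a linear model fitted over all probe sets, as the mean of the bulks minus the mean of the parents, as the aromatic bulk minus Pusa 1121 and as the non-aromatic bulk minus Pusa 1342. The first is the average of the others. It would be independent of the differences that chose the probe sets if arrays varied equally in all groups. Among the 27 the median SD, as a share of the mean, was 6.36% and 21.3% for the aromatic and non-aromatic bulks. For Pusa 1121 and Pusa 1342 it was 7.62% and 17.5%. The choice also used linear means, and the minimum and the bright and dim limits acted on single groups. Independence is therefore not assured, and p-values of the first comparison carry this limit. Between the means of bulks and parents, 15 of the 27 passed an adjusted p of 0.05, 9 higher and 6 lower in the bulks, a share of 55.6%. Of all probe sets 24% passed, and of those with a mean over all arrays of at least 145, the lowest among the 27, 51.7% did, so the share was near that of other bright probe sets. The median log2 difference was 0.09, against -0.02 over all probe sets.

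Of the 27, 3 were higher and 6 lower in the aromatic bulk than in Pusa 1121 and 18 did not pass. Of all probe sets 9.33% were higher and 9.25% lower, 18.6% in all, and of the bright ones 21.1% were higher and 20.7% lower, 41.8% in all. In the non-aromatic bulk 12 were higher and 6 lower than in Pusa 1342 and 9 did not pass, where 11.3% of all probe sets were higher and 12.3% lower, 23.6% in all, and 25% of the bright ones were higher and 26% lower, 51% in all. Each of these comparisons is in part made of the bulk and parental differences that chose the probe sets, so the counts are a description and nothing is read from their distance to these shares. The adjusted p-values given below for single probe sets in these 2 comparisons carry the same limit. The median log2 difference was -0.11 from Pusa 1121 and 0.38 from Pusa 1342, with -0.03 and -0.02 over all probe sets. Whether the counts of the 2 comparisons differ was not tested.

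**Figure D2:**
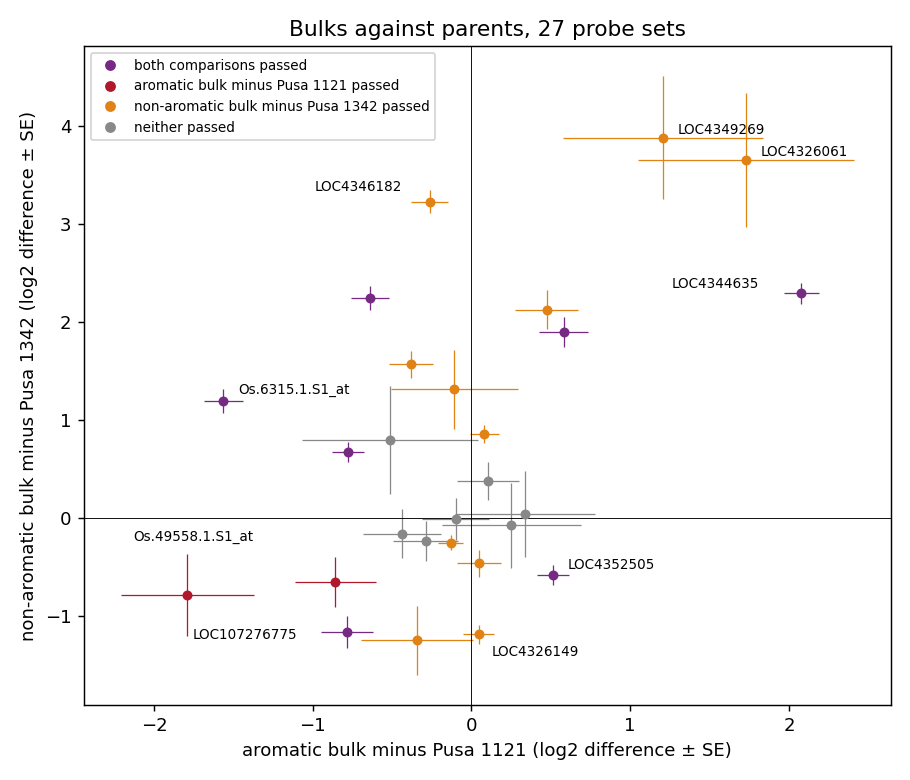
Log2 difference of the aromatic bulk minus Pusa 1121 (x axis) and of the non-aromatic bulk minus Pusa 1342 (y axis) for the 27 probe sets, with bars of 1 SE from limma and colours for the comparisons that passed an adjusted p of 0.05. In 7 probe sets neither passed, and most of the spread is along the y axis, where values reach 3.88.

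OsTUB6 (LOC4338790, chromosome 5) encodes a beta-tubulin, which pairs with alpha-tubulin to build microtubules. Its intensity was 1986, 1891, 2035 and 2216 in the aromatic bulk, compared with 309, 341, 247 and 232 in the non-aromatic bulk. In Pusa 1121 it was 1763, 1938, 1864 and 1996, against 228, 323, 151 and 186 in Pusa 1342. Bulk and parent overlapped on each side, at levels 7.20 times apart between the bulks and 8.50 times between the parents. Neither bulk differed from its parent past the threshold, with log2 0.10 (SE 0.193, limma adjusted p = 0.806) on the aromatic and 0.38 (limma adjusted p = 0.195) on the non-aromatic side. Without replicate 2 of Pusa 1342, the highest there at 323, the second difference passed (limma adjusted p = 0.0176), and so did the average of both differences (0.0352, against 0.247 with all arrays).

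No other beta-tubulin gene passed as higher on the aromatic side. Of 7 measured paralogs, 0 rose and 4 fell in the aromatic bulk and 3 did not pass in limma (0 and 4 at an unadjusted p under 0.05), where 9.49% of all probe sets rose and 9.1% fell. In Pusa 1121 0 rose and 5 fell relative to Pusa 1342 and 2 did not pass (0 and 6 unadjusted), where 12.5% of all probe sets rose and 13.4% fell. Their median log2 differences were -0.37 and -0.57, and over all probe sets both were 0.02. Bright probe sets passed more often in the comparisons of bulk and parent above. Shares among probe sets as bright as these paralogs were not computed. TUB7 had 1864 ± 75.1 in the aromatic bulk and 2917 ± 143 in the non-aromatic bulk (SD, n = 4 each), and 1329 ± 156 in Pusa 1121 and 3193 ± 125 in Pusa 1342. TUB4 had 410.5 ± 40.8 in Pusa 1121 and 2087 ± 78.9 in Pusa 1342 (limma adjusted p = 3.84e-10), and its bulk difference, with 255 ± 21.3 in the aromatic bulk, compared with 245 ± 23.7 in the non-aromatic bulk, did not pass (limma adjusted p = 0.763). The bulks of TUB4 thus lay below both parents. TUB4 is named beyond the rule, which took paralogs by brightness. The brighter TUB5 had 1104 ± 64.2 in the aromatic bulk and 1508 ± 99.5 in the non-aromatic bulk. It had 941 ± 109 in Pusa 1121 and 1394 ± 122 in Pusa 1342. In TUB3 the aromatic bulk fell by 0.42 log2 units, while the parents, with 6601 ± 134 in Pusa 1121 and 6222 ± 158 in Pusa 1342, did not pass (limma adjusted p = 0.389).

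Os5bglu19 (LOC4338556, chromosome 5) is a member of the beta-glucosidase family, whose enzymes cut glucose from glucosides such as stored hormones and defence compounds; its own substrate is not known from the sources used here. The aromatic bulk had 1543, 1413, 1489.9 and 1476, against 267, 234, 393 and 337 in the non-aromatic bulk. Pusa 1121 had 917, 1067, 1094 and 895, against 69.6, 73.3, 84.7 and 95.2 in Pusa 1342. Every array of each bulk lay above every array of its parent, an order seen in 11.7% of all probe sets against Pusa 1121 and in 13% against Pusa 1342. The aromatic bulk rose by 0.58 over Pusa 1121 (SE 0.153, limma adjusted p = 0.0158) and the non-aromatic bulk by 1.90 over Pusa 1342 (limma adjusted p = 6.65e-07). Its mean of the bulks rose by 1.24 over the mean of the parents (limma adjusted p = 1.3e-06).

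The beta-glucosidase family as a whole moved both ways. Among 26 measured paralogs, 8 rose and 3 fell in the aromatic bulk and 15 did not pass, with a median log2 difference of 0.15 (10 and 4 at an unadjusted p under 0.05). In Pusa 1121 5 rose and 7 fell and 14 did not pass, with a median of -0.28 (5 and 9 unadjusted). Of all probe sets 9.49% rose and 9.1% fell between the bulks, and 12.5% rose and 13.4% fell between the parents. As for the beta-tubulin genes, shares among probe sets of like brightness were not computed. Os4bglu12 was a paralog that rose on both aromatic sides, at 3240.4 ± 101 in the aromatic bulk, compared with 1559 ± 102 in the non-aromatic bulk, 3609 ± 143 in Pusa 1121 and 359.5 ± 50.5 in Pusa 1342; it was picked after its values were seen. Os5bglu22, which lies near Os5bglu19 on chromosome 5, had 8235 ± 253 in the aromatic bulk and 9352 ± 264 in the non-aromatic bulk (limma adjusted p = 0.117), and 2011 ± 35.0 in Pusa 1121 and 6186 ± 554 in Pusa 1342 (limma adjusted p = 1.3e-09). Os9bglu31, known as a transglucosidase that moves glucose between acceptors, fell by 1.49 in Pusa 1121. Os1bglu5 rose on both aromatic sides, by 0.56 between the bulks and 0.50 between the parents. Os5bglu20, which lies nearer still, had 408 ± 120 in the aromatic bulk and 256 ± 42.2 in the non-aromatic bulk, and 171 ± 20.0 in Pusa 1121 and 127 ± 28.3 in Pusa 1342, and passed in neither pair (limma adjusted p = 0.0617 and 0.177).

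**Figure D3:**
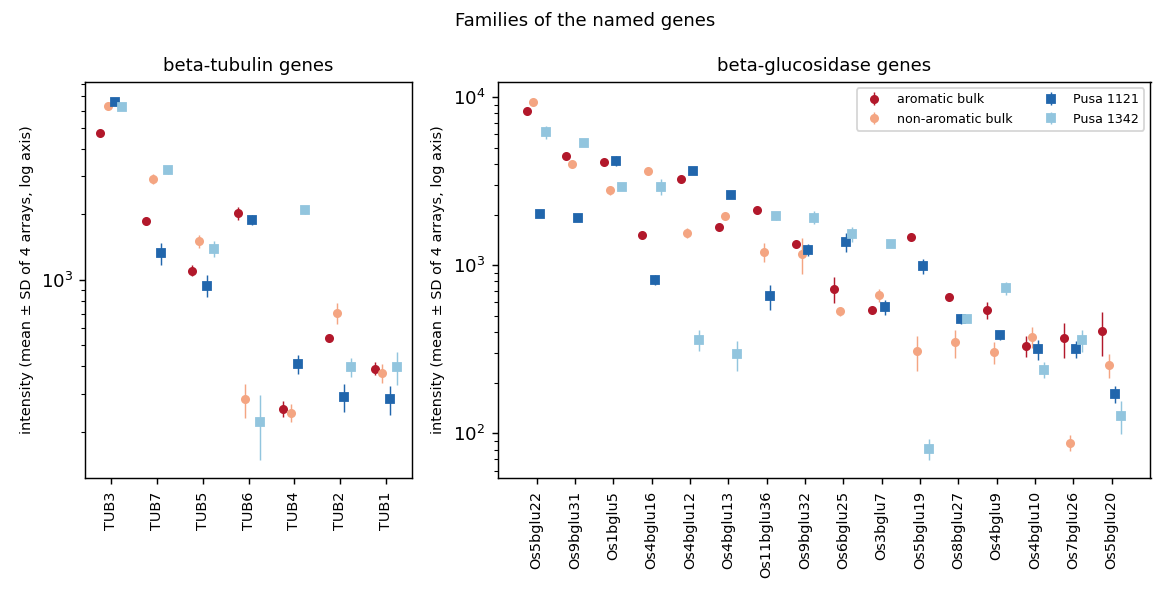
Intensity (mean ± SD of 4 arrays, log axis) of the beta-tubulin genes (left, 7 of 8 measured) and the beta-glucosidase genes (right, 16 of 27 measured) with at least 1 group mean above 200, each read through its brightest probe set; TUB6 is OsTUB6. TUB6 and Os5bglu19 show the aromatic groups above the non-aromatic ones, which no other beta-tubulin gene does.

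The other 17 genes carry only a locus number in the gene table, and no function is given to them here. In the plot of the bulks on the scale of the parents, Pusa 1342 stands at 0% and Pusa 1121 at 100%, both as linear means. The aromatic bulk stood from 26.0% to 489% on this scale, with a median of 91.1%, and the non-aromatic bulk from -17.7% to 83.2%, with a median of 1.47%. For 10 of the 27 the aromatic bulk stood between 75% and 125% and the non-aromatic bulk between -10% and 10%, as OsTUB6 did with 108% and 3.59%. In 9 the aromatic bulk stood below 75%, and in 6 above 125%.

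**Figure D4:**
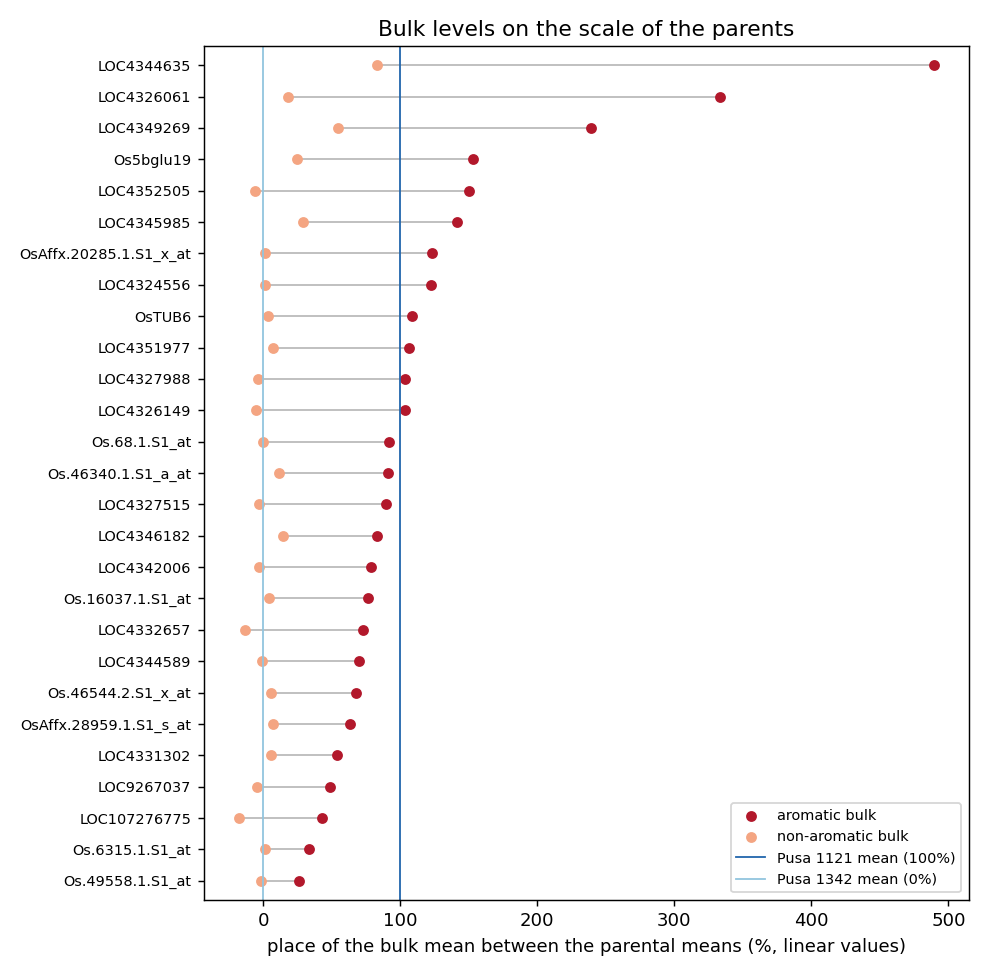
Place of the aromatic bulk and the non-aromatic bulk between the parental means for the 27 probe sets (linear values, Pusa 1342 at 0% and Pusa 1121 at 100%). The non-aromatic bulk lies between -10% and 10% in 18 probe sets, and the aromatic bulk runs from 26.0% to 489%.

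LOC4326149 (chromosome 1) had the largest bulk ratio of the 27, 28.3. The aromatic bulk had 16122, 16151, 16711 and 16994, against 689, 529, 534 and 579.6 in the non-aromatic bulk. Pusa 1121 had 16151, 15695, 15011 and 17141, against 1479, 1304, 1320.3 and 1177 in Pusa 1342. The aromatic bulk and Pusa 1121 overlapped (log2 0.05, limma adjusted p = 0.835), while all arrays of the non-aromatic bulk lay below all of Pusa 1342. The non-aromatic bulk fell by 1.18 relative to Pusa 1342 (SE 0.0980, limma adjusted p = 8.7e-07). This p-value carries the limit given above, since the same non-aromatic bulk values are part of the bulk ratio. The mean of the bulks fell by 0.57 relative to the mean of the parents (limma adjusted p = 3.04e-05).

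LOC4327515 (chromosome 1) and LOC4327988 (chromosome 2) showed the same order with smaller steps. LOC4327515 had 7341, 7779, 7566 and 7042 in the aromatic bulk, compared with 952, 956, 988 and 963 in the non-aromatic bulk, 8413, 8047, 8452 and 7639.9 in Pusa 1121, and 1054, 1102, 1285 and 1164 in Pusa 1342. LOC4327988 had 2491, 2322, 2342 and 2486 in the aromatic bulk, compared with 229, 186, 239.8 and 152 in the non-aromatic bulk, 2364, 2173, 2389 and 2402 in Pusa 1121, and 241, 308, 243 and 309 in Pusa 1342. In each of these probe sets the aromatic bulk overlapped Pusa 1121 and the non-aromatic bulk lay below Pusa 1342. In a second probe set of LOC4327515 the non-aromatic bulk was higher, at 131 ± 30.6, against 20.5 ± 15.0 in Pusa 1342. The non-aromatic bulk fell by 0.25 for LOC4327515 (limma adjusted p = 0.0287) and fell by 0.46 for LOC4327988 (limma adjusted p = 0.0260). Both calls were near the threshold and changed with the arrays in the fit. That of LOC4327515 was lost without replicate 1, 2 or 4 of the non-aromatic bulk or replicate 3 or 4 of Pusa 1342 (limma adjusted p from 0.0568 to 0.0918), and that of LOC4327988 without replicate 2 or 4 of either group (0.0663 to 0.0795). When these arrays alone were fitted they were lost too (0.117 and 0.136).

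LOC4352505 (chromosome 12) lay outside the parental range on both sides. Its values were 8098, 8619, 8957 and 8869 in the aromatic bulk, compared with 559.7, 639.8, 551 and 753 in the non-aromatic bulk, and 5476, 6520.0, 6320.5 and 5874 in Pusa 1121, against 964, 910.0, 912 and 916 in Pusa 1342. All arrays of the aromatic bulk exceeded Pusa 1121 and all of the non-aromatic bulk were below Pusa 1342. The aromatic bulk rose by 0.52 over Pusa 1121 (SE 0.101, limma adjusted p = 0.00219) and the non-aromatic bulk fell by 0.58 relative to Pusa 1342 (limma adjusted p = 0.000732). It was the single probe set of the 27 with this pair of calls. Its mean of the bulks did not differ from the mean of the parents past the threshold (log2 -0.03, limma adjusted p = 0.83).

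The opposite arrangement, with the bulks drawn inside the parental range, was found in LOC4331302 and in the unlisted probe sets Os.6315.1.S1_at and OsAffx.28959.1.S1_s_at. LOC4331302 (chromosome 3) had 7220.4, 7599.8, 7569.5 and 7156 in the aromatic bulk, compared with 1842, 1702, 1614 and 1941 in the non-aromatic bulk, and 13054, 12968, 12968 and 11746 in Pusa 1121, against 1296, 924, 1141 and 1088 in Pusa 1342. The aromatic bulk fell by 0.78 relative to Pusa 1121 (limma adjusted p = 7.03e-05) and the non-aromatic bulk rose by 0.68 over Pusa 1342 (limma adjusted p = 0.000176). Its mean of the bulks did not differ from the mean of the parents past the threshold (log2 -0.05, limma adjusted p = 0.702). Os.6315.1.S1_at, with the widest parental ratio of the 27 (103), had 3880.2, 3919.8, 4037 and 4269.8 in the aromatic bulk, compared with 301, 305, 202 and 272 in the non-aromatic bulk, and 12214, 11236, 12225 and 11905 in Pusa 1121, against 102, 116, 119 and 127 in Pusa 1342. Its aromatic bulk stood at 33.2% of the parental scale and its non-aromatic bulk at 1.31%. The aromatic bulk fell by 1.56 (SE 0.121, limma adjusted p = 5.4e-07) and the non-aromatic bulk rose by 1.20 (limma adjusted p = 5.54e-06) relative to its parent. For OsAffx.28959.1.S1_s_at, at 2972 ± 219 in the aromatic bulk, compared with 437 ± 70.0 in the non-aromatic bulk, 4631 ± 233 in Pusa 1121 and 90.4 ± 9.24 in Pusa 1342, these differences were -0.64 and 2.25, and both passed (limma adjusted p = 0.00148 and 1.25e-08).

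The probe set Os.16037.1.S1_at, also without a listed gene, had 5429.8, 5693, 6105 and 5740.3 in the aromatic bulk, compared with 426, 399, 400.2 and 601 in the non-aromatic bulk, and 7652, 7432, 7727 and 7093 in Pusa 1121, against 165, 162, 118 and 162 in Pusa 1342. The arrays of the aromatic bulk were all below Pusa 1121 and those of the non-aromatic bulk all above Pusa 1342. This order of arrays was found in 5 of the 27 and in 2.78% of all probe sets, and the order of LOC4352505 in 1 and in 2.69%; both are partly set by the choice, and nothing is read from the counts. The non-aromatic bulk rose by 1.57 (limma adjusted p = 1.64e-06). The aromatic difference of -0.38 did not pass (limma adjusted p = 0.0797), but did without replicate 4 of the non-aromatic bulk or replicate 3 of Pusa 1342 (0.0438 and 0.0249), arrays that enter it only through the shared estimate of spread, and when the aromatic arrays alone were fitted (0.0204).

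LOC4344635 (chromosome 8) had the bulks highest on the linear parental scale, at 489% and 83.2%; by log2 difference of the means LOC4326061 and LOC4349269 stood higher. The aromatic bulk had 5207, 5089.9, 4513 and 4792, against 1118, 1001, 988 and 904 in the non-aromatic bulk, and Pusa 1121 had 1075, 1111, 1369 and 1100.1, against 218, 188, 229 and 180.4 in Pusa 1342. The aromatic bulk thus lay above every other group, and the arrays of the non-aromatic bulk overlapped those of Pusa 1121. The ratio of bulk to parent was 4.21 on the aromatic and 4.92 on the non-aromatic side. The aromatic bulk rose by 2.08 (SE 0.109, limma adjusted p = 1.22e-08) and the non-aromatic bulk by 2.3 (limma adjusted p = 4.38e-09). Its mean of the bulks rose by 2.19 over the mean of the parents (limma adjusted p = 2.43e-10).

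LOC4326061 (chromosome 1) and LOC4349269 (chromosome 10) were also higher in the bulks, from very dim values in Pusa 1342. With Pusa 1342 below 50, such probe sets were kept only where Pusa 1121 was not above 500. The choice thus set a limit on the level of the parents here. LOC4326061 had 1443, 1344, 1466 and 1147 in the aromatic bulk, compared with 98.7, 119.8, 25.6 and 81.2 in the non-aromatic bulk, 481, 454, 401 and 308 in Pusa 1121, and 0.936, 8.66, 22.6 and 1.33 in Pusa 1342. LOC4349269 had 1077, 1041, 991 and 1059 in the aromatic bulk, compared with 267, 247, 263 and 257 in the non-aromatic bulk, 439, 495, 449 and 425 in Pusa 1121, and 48.2, 45.6, 2.31 and 11.6 in Pusa 1342. No array of a bulk overlapped its parent in either gene. The non-aromatic bulk rose by 3.66 for LOC4326061 (limma adjusted p = 0.00114) and by 3.88 for LOC4349269 (limma adjusted p = 0.000367), sizes that shrank to 1.95 and 2.87 with a pseudocount of 16. The aromatic bulk stood 1.73 and 1.21 log2 units above Pusa 1121 without passing (limma adjusted p = 0.106 and 0.242). Both passed with a pseudocount of 16 (0.00197 and 0.0122) and when the aromatic arrays alone were fitted (0.000658 and 0.00018). They also passed without replicate 3 of Pusa 1342 (0.0359 and 0.0216). The mean of the bulks rose by 2.69 and 2.545 over the mean of the parents (limma adjusted p = 0.000816 and 0.000676). A brighter probe set of LOC4326061, left out by the choice, had 3043 ± 125 in the aromatic bulk and 1074 ± 64.2 in Pusa 1121. Another had 1461 ± 104 and 500 ± 69.6. These differences of the further probe sets were not tested.

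LOC4346182 and LOC4345985 lie on chromosome 8, as LOC4344635 does, and both stood higher in the non-aromatic bulk than in Pusa 1342. LOC4346182 had 2724, 3063, 2832 and 2592 in the aromatic bulk, compared with 589.8, 527, 549 and 508 in the non-aromatic bulk, and 3207, 3081, 3555 and 3599.8 in Pusa 1121, against 50.1, 70.4, 60.8 and 48.7 in Pusa 1342. LOC4345985 had 1037, 955, 1082 and 1216 in the aromatic bulk, compared with 249, 402, 198 and 222 in the non-aromatic bulk, and 822, 816, 815 and 641 in Pusa 1121, against 72.1, 61.6, 53.3 and 47.9 in Pusa 1342. Groups did not overlap in either gene, the aromatic bulk lying just below Pusa 1121 in LOC4346182 and just above it in LOC4345985. The non-aromatic bulk rose by 3.23 for LOC4346182 (SE 0.117, limma adjusted p = 3.6e-10) and by 2.13 for LOC4345985 (limma adjusted p = 2.6e-06). The mean of the bulks rose by 1.49 and 1.30 over the mean of the parents (limma adjusted p = 1.6e-08 and 9.65e-06). The aromatic differences of -0.26 and 0.47 did not pass (limma adjusted p = 0.161 and 0.131); the second passed without replicate 2 of the non-aromatic bulk (0.0340) and when the aromatic arrays alone were fitted (0.0463).

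LOC4351977 (chromosome 12) overlapped its parent in the aromatic bulk, at 2848, 2849, 2712 and 2587, against 2409, 2543, 2616 and 2838 in Pusa 1121 (log2 0.08, limma adjusted p = 0.657). The non-aromatic bulk had 378, 399.8, 376 and 414, against 198, 213, 256 and 199.9 in Pusa 1342, and rose by 0.86 (limma adjusted p = 1.03e-05). The unlisted Os.46340.1.S1_a_at had 299 ± 22.7 in the aromatic bulk, compared with 64.8 ± 15.8 in the non-aromatic bulk, 325 ± 56.5 in Pusa 1121 and 29.5 ± 16.7 in Pusa 1342, and its non-aromatic bulk rose by 1.32 (limma adjusted p = 0.0279). That call was lost without replicate 1, 3 or 4 of the non-aromatic bulk or replicate 2 of Pusa 1342 (limma adjusted p from 0.0505 to 0.0725) and when these arrays alone were fitted (0.141). Without replicate 1 of Pusa 1342, which had 7.94, the difference was 0.81.

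Lower levels in the bulks were clearest in LOC107276775 (chromosome 12). The aromatic bulk had 2752, 2843, 2515 and 3166, against 5824, 4972, 5607 and 3395 in Pusa 1121, and the non-aromatic bulk 512, 542, 486 and 576, against 1059, 1009, 1312 and 1394 in Pusa 1342. Both bulks were below their parents on all arrays, with replicate 4 of Pusa 1121 near the aromatic bulk. The aromatic bulk fell by 0.79 (limma adjusted p = 0.00344) and the non-aromatic bulk fell by 1.16 (limma adjusted p = 0.000117). The mean of the bulks fell by 0.97 relative to the mean of the parents (limma adjusted p = 2.45e-05). The unlisted Os.49558.1.S1_at stood lowest on the parental scale, at 26.0%. It had 1174, 1105, 1336 and 1077 in the aromatic bulk and 3738, 4421, 4114 and 3933 in Pusa 1121, and the aromatic bulk fell by 1.79 (SE 0.419, limma adjusted p = 0.00757). Its non-aromatic groups, with 136, 138, 27.8 and 115 in the bulk and 114, 131, 139 and 262 in Pusa 1342, overlapped (log2 -0.79, limma adjusted p = 0.223).

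The probe sets taken for LOC9267037 (chromosome 12) and LOC4332657 (chromosome 3) were lower in the bulks. Their calls were in part near the threshold and changed with the arrays in the fit. LOC9267037 had 497, 552, 534 and 499 in the aromatic bulk, compared with 52.7, 104, 77.3 and 44.5 in the non-aromatic bulk, 855, 1059.5, 882 and 986 in Pusa 1121, and 112, 146, 107 and 66.5 in Pusa 1342. The aromatic bulk lay below Pusa 1121 on all arrays and fell by 0.86 (limma adjusted p = 0.0312), a call lost without any 1 array of the aromatic bulk or without replicate 2, 3 or 4 of Pusa 1121 (limma adjusted p from 0.0532 to 0.0804). Its non-aromatic difference of -0.65 did not pass (limma adjusted p = 0.0903), but did without replicate 2 of the non-aromatic bulk or replicate 4 of Pusa 1342 (0.0181 and 0.0210). The mean of its bulks fell by 0.75 relative to the mean of the parents (limma adjusted p = 0.00699), a call kept under all 20 alternatives (0.00105 to 0.0164). A brighter probe set of this gene had 1672 ± 67.4 in the aromatic bulk and 2840 ± 185 in Pusa 1121. Its non-aromatic bulk, at 425 ± 44.1, stood above Pusa 1342, at 332 ± 55.1, by the means. Another, dimmer one had lower means in both bulks than in their parents, with non-aromatic means of 54.5 and 73.6. LOC4332657 had 288, 288, 252 and 321 in the aromatic bulk, compared with 15.1, 48.4, 28.8 and 19.9 in the non-aromatic bulk, 313, 298, 473 and 397 in Pusa 1121, and 53.9, 66.7, 36.0 and 112 in Pusa 1342. Its bulks overlapped the parents on both sides, and the non-aromatic bulk fell by 1.24 (limma adjusted p = 0.0192). This was lost without replicate 1 or 4 of the non-aromatic bulk or replicate 4 of Pusa 1342 (limma adjusted p from 0.0562 to 0.0618) and when these arrays alone were fitted (0.108). For LOC4332657 the mean of the bulks fell by 0.79 relative to the mean of the parents (limma adjusted p = 0.0327), which was lost without replicate 1, 2 or 3 of the aromatic bulk, 1 or 4 of the non-aromatic bulk, 3 or 4 of Pusa 1121, or 2 or 4 of Pusa 1342 (from 0.0528 to 0.0663).

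The remaining 6 probe sets passed in none of the comparisons of bulk and parent, as OsTUB6 did with all arrays. LOC4344589 (chromosome 8) had 657, 849, 828 and 755 in the aromatic bulk, compared with 115, 187, 71.3 and 168 in the non-aromatic bulk, and 974, 1086, 986 and 1116 in Pusa 1121, against 150.4, 169, 109 and 144 in Pusa 1342. All arrays of its aromatic bulk lay below Pusa 1121, with a log2 difference of -0.43 (limma adjusted p = 0.288) that passed when these arrays alone were fitted (0.0433). LOC4342006 (chromosome 6) had 336 ± 48.0 in the aromatic bulk, compared with 61.4 ± 18.5 in the non-aromatic bulk, 408 ± 18.6 in Pusa 1121 and 70.3 ± 12.7 in Pusa 1342. LOC4324556 (chromosome 1) had 367 ± 64.5, 36.6 ± 31.8, 306 ± 33.5 and 32.9 ± 15.3 in the same order of groups. Among the unlisted, Os.68.1.S1_at had 1427 ± 50.1 in the aromatic bulk, compared with 102 ± 36.1 in the non-aromatic bulk, 1539 ± 216 in Pusa 1121 and 97.3 ± 7.77 in Pusa 1342. Its log2 differences from the parents were -0.10 (SE 0.210) and -0.01. Os.46544.2.S1_x_at and OsAffx.20285.1.S1_x_at, the dimmest of the 27, had aromatic bulks of 208 ± 51.0 and 267 ± 11.0 and Pusa 1121 at 291 ± 26.7 and 225 ± 92.8, with non-aromatic means from 33.7 to 48.4. The SE of their log2 differences from the parents reached 0.553, the widest after LOC4326061 and LOC4349269.

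Other probe sets of the same genes mostly went the same way. Of 9 such probe sets from 6 genes, 8 (88.9%) were higher on both aromatic sides by their means, against 29.2% of all 22436 probe sets with 1 gene. Of these, 3 (2 of LOC4326061 and 1 of LOC4327515) had met the folds themselves and were left out for the bright and dim parents; of the other 6, 5 were higher on both sides. They share RNA with the 27, and those named from the same sequence cluster may share probes with the 27. A second probe set of LOC4327515 had 4970.0 ± 179 in the aromatic bulk, compared with 131 ± 30.6 in the non-aromatic bulk, 5174 ± 497 in Pusa 1121 and 20.5 ± 15.0 in Pusa 1342, the last too dim for an exact ratio. For LOC4351977 a second probe set had 11563 ± 519 in the aromatic bulk, compared with 8231 ± 231 in the non-aromatic bulk, 12776 ± 565 in Pusa 1121 and 7731 ± 484 in Pusa 1342, with ratios of only 1.40 and 1.65. For LOC4352505, 1 of 2 further probe sets differed 16.1-fold between the bulks but had 66.2 ± 61.4 in Pusa 1121 and 82.5 ± 48.8 in Pusa 1342, and was the single exception. The other had ratios of 8.61 and 2.56. Probe sets of class x_at, which hold probes that match other sequences, made up 3 of the 27 (11.1%, against 12.5% of all), and those of class s_at, shared by several transcripts, another 3 (11.1%, against 4.92%).

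The 19 genes were spread over 8 of 12 chromosomes. Chromosomes 1, 8 and 12 held 4 each (21.1%), where 14.8%, 6.74% and 5.07% of all measured genes lie, chromosomes 3 and 5 held 2 each and chromosomes 2, 6 and 10 held 1 each. No 2 of the 19 genes lay within 5 genes of each other in the gene order. Genes left out for the bright and dim parents were not counted in this. The closest of the 19 were LOC4344589 and LOC4344635, 60 genes apart on chromosome 8, and LOC4326061 and LOC4324556, 131 genes apart on chromosome 1. BADH2 is on chromosome 8 too, but the nearest of the 19, LOC4345985, was 490 genes away from it, LOC4346182 was 749 genes away, and LOC4344635 and LOC4344589 were 1385 and 1445 genes away on the other side. BADH2 itself ran the other way, at 370 ± 39.9 in the aromatic bulk and 733 ± 59.5 in the non-aromatic bulk, and 349 ± 54.1 in Pusa 1121 and 2233 ± 10.3 in Pusa 1342.

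Genes next to the 19 were examined as far as 10 genes to either side. Of 197 measured neighbours, 24 (12.2%) were higher on the aromatic side of both pairs in limma and 15 (7.61%) lower on both, against 8.09% and 8.34% of all 17905 genes. Around OsTUB6, 4 of 16 neighbours were higher on both sides. The adjacent LOC4338789 had 966 in the aromatic bulk and 356 in the non-aromatic bulk, and 943 in Pusa 1121 and 320 in Pusa 1342. Around LOC9267037, 3 of 5 were higher, among them LOC4352177, 4 genes away, with 344 in the aromatic bulk and 47.9 in the non-aromatic bulk, and 772 in Pusa 1121 and 32.5 in Pusa 1342. Around LOC4326061, 2 of 4 were higher, and LOC4326058, 6 genes away, had 9105 in the aromatic bulk and 2148 in the non-aromatic bulk, and 13156 in Pusa 1121 and 26.2 in Pusa 1342. LOC4352177 and LOC4326058 met the folds and the minimum of the choice and were left out for the bright and dim parents. Around LOC4332657 4 of 11 were higher. LOC4326149, LOC4327515, LOC107276775, LOC4327988, Os5bglu19, LOC4344589 and LOC4349269 had 0 such neighbours among 9 to 16 each. Lower on both sides were 3 of 12 neighbours of LOC4327515 and 3 of 11 of LOC107276775. So were 2 of 7 of LOC4344635 and 2 of 8 of LOC4345985. The neighbours and neighbourhoods named were picked for their values, and the gene order is that of a reference assembly, not of the parents.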

How the data were processed

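Leaf RNA of 16 samples was labelled with biotin and hybridised to Affymetrix rice arrays, per the labels' protocols. The deposited table holds a linear intensity for each probe set on each array, between 0.201 and 45123, and its values have the same distribution on all arrays. GCOS 1.2 and RMA are named, without their roles, per the submitters' processing notes, and the sources used here give no further settings and no build. Equal distributions hide any shift of all genes, and the number of arrays limits the precision.

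Of 57381 probe sets 187 controls were left out. Names came from the platform annotation and the gene table of assembly ASM3414082v1 (22436 probe sets with 1 gene, 95 with several), used also for chromosome and gene order. A gene was read through its brightest probe set. Of the tissue markers listed, 39 were matched.

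On log2(value + 1), limma 3.58.1 (R 4.3.3) fitted the 4 group means together, which left 12 residual degrees of freedom. Tests were two-sided at 0.05, and p-values were adjusted by Benjamini-Hochberg across the 57194 probe sets. Replicate numbers did not pair arrays: same-numbered deviations from the group means correlated at -0.00709 to 0.0136. Alternatives were a pseudocount of 16, a mean of at least 50, fits of the compared groups alone, trended and robust variances, a replicate block and leaving out each array. Of the steps, the limma comparison of the mean of the bulks with the mean of the parents was tried on simulated data.

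The members and lists were chosen with earlier results of these data known. The rule for names covered genes with a published name, the brightest, those with the largest differences of bulk and parent, those nearest BADH2 and family members; all 27 are named, which goes beyond it. Sequences of these genes are not used here.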

Additional observations from a re-analysis of the deposited data

Results flagged for a closer look

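In 10 of 108 sets of 4 arrays (27 probe sets in 4 groups) 1 array stood apart by Dixon's criterion, which flags about 1 in 20 by chance. In Pusa 1121 these were LOC4331302 at 11746 on replicate 4 (others 12968 to 13054), LOC4344635 at 1369 on replicate 3 (others 1075 to 1111), LOC4327988 at 2173 on replicate 2 (others 2364 to 2402) and LOC4345985 at 641 on replicate 4 (others 815 to 822). In Pusa 1342 they were LOC4352505 at 964 on replicate 1 (others 910.0 to 916), Os.16037.1.S1_at at 118 on replicate 3 (others 162 to 165) and Os.49558.1.S1_at at 262 on replicate 4 (others 114 to 139). In the non-aromatic bulk, Os.16037.1.S1_at had 601 on replicate 4 (others 399 to 426) and LOC4324556 had 83.7 on replicate 3 (others 13.5 to 25.3). In the aromatic bulk, Os.46340.1.S1_a_at had 333 on replicate 3 (others 286 to 289).

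In 6 probe sets every array of one bulk stood on one side of its parent and every array of the other bulk on the opposite side; the difference itself was not tested, since it is built from the values that chose the probe sets. The aromatic bulk was below Pusa 1121 and the non-aromatic bulk above Pusa 1342 in LOC4346182, Os.6315.1.S1_at, OsAffx.28959.1.S1_s_at, Os.16037.1.S1_at and LOC4331302, where the aromatic minus the non-aromatic log2 difference was -3.49, -2.76, -2.89, -1.95 and -1.46. LOC4352505 showed the reverse, with 1.09. Of all probe sets 2.78% had the first arrangement on every array and 2.69% the second; single separations from a parent ran from 11.7% to 14.6%.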

How the results depend on the processing

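The choice of 27 probe sets depended on the fold, with 60 at a fold of at least 3 and 14 at 6. It held 25 to 29 when 1 array was left out. Of the 16 such settings, LOC4345985 was kept in 11, LOC107276775 in 12 and Os.46544.2.S1_x_at in 13. LOC4349269 was kept in 14 and OsAffx.20285.1.S1_x_at in 15, and the others of the 27 in all 16. The number higher in the aromatic bulk than in Pusa 1121, 3, became 5 with a pseudocount of 16, 6 when only the aromatic arrays were fitted, and 3 to 5 without 1 array. The number lower in the non-aromatic bulk than in Pusa 1342, 6, became 3 when only those arrays were fitted, and 3 to 6 without 1 array. The other counts of bulk and parent stayed within 1.5 times. Of 81 tests (27 probe sets, 3 comparisons) 67 kept their side of the threshold under every alternative and 14 did not, 6 of them passing calls that were lost, and no called difference turned direction. With the replicate block, the non-aromatic difference of LOC4327988 did not pass (limma adjusted p = 0.0603, from 0.00473 to 0.136 over 21 alternatives) and that of LOC9267037 did (0.0426, from 0.0181 to 0.256); the block changed no other call. With a mean of at least 50 the aromatic difference of Os.16037.1.S1_at passed (0.0331) and the non-aromatic one of LOC9267037 too (0.0474). With trended and robust variances these passed (0.0157 and 0.0435), as did the aromatic one of LOC4326061 (0.0445). The causes were not tested. The 8 further probe sets that were higher on both sides numbered 8 or 9 without 1 array, an alternative added after the data were seen. Low values limit what can be seen: 6 of the 27 had a Pusa 1342 mean below 50.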
